A study of Mus musculus with 14 samples.

Results

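Rpl10l, Rpl39l, Cetn1, Rbmxl2 and Utp14b are 5 autosomal retrocopies, genes that arose when the messenger RNA of a housekeeping gene on the X chromosome was copied back into the genome. They were taken by name from the gene rows of the deposited count tables, which held 32667 genes for spermatogonia and 36888 for spermatocytes, and all 5 were present in both. Their parents are Rpl10, Rpl39, Cetn2, Rbmx and Utp14a in that order. In male meiosis the X chromosome is transcriptionally silenced from the pachytene stage onwards, a process called meiotic sex chromosome inactivation. Cells that still need the product of an X-linked housekeeping gene can then draw on an autosomal copy, and many such copies are used mainly or only in the testis.

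The libraries hold polyadenylated RNA of sorted testicular germ cells of mice lacking the DNA methyltransferase DNMT3C (Dnmt3C KO/KO, here KO) and of wild-type mice (WT), on a C57Bl6/J background. Spermatogonia (Spg), the premeiotic cells, came from mice at postnatal day 14 and were sorted as DAPI-negative, β2-microglobulin-negative and Ep-CAM-positive cells (3 KO and 3 WT libraries). Spermatocytes (Spc), the meiotic cells, came from mice older than 20 days and were sorted by Hoechst-stained DNA content with dead cells removed by propidium iodide (4 KO and 4 WT libraries). Stage, age and sorting gate therefore changed together and cannot be told apart. DNMT3C methylates the promoters of young retrotransposons in male germ cells, and germ cells without it are known to arrest at the pachytene stage of meiosis. In bulk RNA of this kind, fewer cells of a type and less RNA per cell cannot be told apart.

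Total counts ran from 40555726 to 53323651 per library. The RNA of the targeted gene did not check the labels, since Dnmt3c had 58 to 116 counts in KO Spg against 53 to 89 in WT Spg, and 52 to 57 in KO Spc against 11 to 28 in WT Spc. All 10 spermatid markers (Prm1, Tnp1, Acrv1 and others) were detected in WT Spc at a summed level of 262 to 1715 CPM (counts relative to the library total, scaled by TMM factors over the 14 libraries). In KO Spc their sum was 5.79 to 13.4 CPM, with Prm1, Prm2, Tnp1, Tnp2, Acrv1, Tssk6, Acr and Catsper1 below 1 CPM. The 10 pachytene markers summed to 6718 to 13039 CPM in WT Spc, 242 to 460 CPM in KO Spc, 213 to 248 CPM in KO Spg and 302 to 1273 CPM in WT Spg. In KO against WT Spc 8 of these 10 were called lower and 1, Cdc25c, higher, and Ldhc and Piwil1 made up most of the sum in WT Spc, with means of 5364 and 2773 CPM. The 10 early meiotic markers summed to 1448 to 2394 CPM in KO Spc and 1751 to 2345 CPM in WT Spc, with 4 called higher, 1 lower and a median log2 fold change of 0.06. Markers of Leydig cells summed to 53.4 to 318 CPM in KO Spc against 13.9 to 29.5 CPM in WT Spc, and those of macrophages to 22.2 to 124 CPM against 2.82 to 5.94 CPM, with 5 of 5 genes called higher in each list. Markers of spermatogonia summed to 455 to 1160 CPM in KO Spc against 37.8 to 289 CPM in WT Spc, with 7 of 10 called higher and a median log2 fold change of 2.79. Those of Sertoli cells summed to 69.0 to 294 CPM against 30.7 to 103 CPM, with 1 of 6 called higher and a median of 1.68. Those of peritubular cells summed to 10.4 to 160 CPM against 3.06 to 10.2 CPM, with 2 of 4 called higher. Beside all of these counts, 28% of all genes were called higher in KO than in WT Spc and 30.7% lower. Replicate 3 of WT Spc and replicate 2 of WT Spg stood apart from the rest of their groups in several of these sums. The KO Spc libraries also split, with spermatogonia markers at 461 and 455 CPM in replicates 1 and 4 against 1160 and 1146 CPM in replicates 2 and 3, and Leydig markers at 318 and 260 CPM against 53.4 and 59.3 CPM. The part of these marker levels in the results below was not tested.

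The retrocopies lie on 5 autosomes, and the coding sequence of each one is held in a single exon, as is usual for a copy made from spliced RNA. In GRCm38 with GENCODE M21, Rpl10l is the single-exon gene at chr12:66283379-66284401 on the minus strand, Rpl39l lies at chr16:10170226-10174911 on the plus strand with 3 exons, and Rbmxl2 is the single-exon gene at chr7:107209445-107210916 on the plus strand. Utp14b lies at chr1:78658038-78671512 on the plus strand, inside the Acsl3 gene, with 244 of its 7679 exonic bases shared with Acsl3 exons. The coding sequences of the parents are spread over 6 exons in Rpl10, 3 in Rpl39, 5 in Cetn2, 8 in Rbmx and 15 in Utp14a. Over the aligned coding bases, the identity of retrocopy and parent was 84.7% for Rpl10l and Rpl10, 85.0% for Rpl39l and Rpl39, 79.5% for Cetn1 and Cetn2, 77.9% for Utp14b and Utp14a and 68.1% for Rbmxl2 and Rbmx.

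The following stretches show how far the paired transcripts differ, which decides whether a read can be told apart between them. Each is the first stretch of 120 bases without a gap in the coding alignment, 5′ to 3′, read from the GENCODE M21 transcripts, and capitals mark the bases that differ between retrocopy and parent. For Rpl39l and Rpl39 the whole coding sequence is shown, and none is shown for Cetn1 and Cetn2.
Rpl10l, coding bases 1 to 120: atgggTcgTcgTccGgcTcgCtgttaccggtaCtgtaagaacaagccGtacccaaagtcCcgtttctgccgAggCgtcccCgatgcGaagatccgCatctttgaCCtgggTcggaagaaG
Rpl10, coding bases 1 to 120: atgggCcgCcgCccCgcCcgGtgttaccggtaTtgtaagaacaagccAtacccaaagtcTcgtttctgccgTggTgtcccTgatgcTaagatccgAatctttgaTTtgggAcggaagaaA
Rpl39l: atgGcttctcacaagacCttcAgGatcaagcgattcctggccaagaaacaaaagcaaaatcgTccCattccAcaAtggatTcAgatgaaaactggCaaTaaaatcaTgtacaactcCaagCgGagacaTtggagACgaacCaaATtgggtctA
Rpl39: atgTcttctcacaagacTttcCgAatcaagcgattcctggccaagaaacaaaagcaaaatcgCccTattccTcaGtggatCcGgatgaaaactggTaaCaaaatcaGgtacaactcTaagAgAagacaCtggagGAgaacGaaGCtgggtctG
Utp14b, coding bases 97 to 216: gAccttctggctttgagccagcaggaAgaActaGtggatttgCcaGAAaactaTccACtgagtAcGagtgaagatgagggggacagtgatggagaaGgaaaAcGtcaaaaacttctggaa
Utp14a, coding bases 25 to 144: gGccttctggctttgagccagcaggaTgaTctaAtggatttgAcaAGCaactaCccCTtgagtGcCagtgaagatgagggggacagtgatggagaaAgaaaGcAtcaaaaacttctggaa
Rbmxl2, coding bases 1 to 120: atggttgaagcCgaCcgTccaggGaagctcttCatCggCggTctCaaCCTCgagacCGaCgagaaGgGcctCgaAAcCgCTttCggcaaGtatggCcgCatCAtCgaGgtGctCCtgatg
Rbmx, coding bases 1 to 120: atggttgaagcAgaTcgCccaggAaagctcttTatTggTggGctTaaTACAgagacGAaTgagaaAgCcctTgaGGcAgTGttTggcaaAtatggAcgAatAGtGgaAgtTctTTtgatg

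The pairs differ at 18 of 120 positions in Rpl10l and Rpl10, 23 in the whole of Rpl39l and Rpl39, 16 of 120 in Utp14b and Utp14a and 35 of 120 in Rbmxl2 and Rbmx. Of the windows of 100 bases, shorter than a read, along each retrocopy's transcript (924 in Rpl10l, 706 in Rpl39l, 1148 in Cetn1, 1373 in Rbmxl2 and 7294 in Utp14b), 0 matched a transcript of the parent with at most 1 mismatch. Also 0 windows of Rpl10l, Rpl39l, Cetn1 or Rbmxl2 occurred in the transcript of another annotated gene, and 1.48% of the windows of Utp14b occurred in Acsl3. Rbmx and Cetn2 also had 0 windows in another gene. The other parents were less separable, because 84.4% of the Rpl10 windows also occurred in 10 annotated genes, among them Rpl10 pseudogenes, and 12.5% of those of Utp14a and 1.75% of those of Rpl39 occurred in 1 other gene each. The count of Rpl10 is uncertain for that reason.

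Rpl10l and Rpl39l encode stand-ins for proteins of the large ribosomal subunit. In WT Spc their RNA was several times higher than in Spg, and in KO Spc it lay in the range of the Spg libraries or below it. Rpl10l had 3344, 4826 and 2375 counts in WT Spg (replicates 1 to 3) and 2908, 1920 and 3181 in KO Spg, so the groups overlapped. It had 14398, 13535, 13618 and 11712 counts in WT Spc (replicates 1 to 4) against 1834, 2730, 2848 and 1761 in KO Spc. Every WT Spc library thus held more Rpl10l than any KO Spc library. The mean level was 397 ± 50.0 CPM (SD, n = 4) in WT Spc and 44.0 ± 9.02 CPM (SD, n = 4) in KO Spc, a log2 fold change of -3.15 ± 0.22 (SE) with an adjusted p of 4.54e-06 in edgeR's quasi-likelihood test.

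Rpl39l gave nearly the same picture. Its counts were 3073, 3418 and 2408 in WT Spg and 2658, 2117 and 3625 in KO Spg. They were 13365, 10724, 9879 and 10554 in WT Spc against 1340, 2818, 2586 and 1411 in KO Spc, again without overlap. The KO Spc libraries split as their markers did, with 27.1 and 28.7 CPM of Rpl39l in replicates 1 and 4 and 50.5 and 49.3 CPM in replicates 2 and 3. The log2 fold change in Spc was -3.09 ± 0.30 (SE, edgeR adjusted p = 2.26e-05). Per kilobase of exon, the scale on which levels of different genes can be set side by side, Rpl39l stood at 403 ± 90.2 and Rpl10l at 388 ± 48.8 CPM per kb in WT Spc (SD, n = 4), which did not differ beyond their spread. In KO Spc they stood at 46.8 ± 15.3 and 43.0 ± 8.82 CPM per kb.

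Cetn1 encodes a centrin, a calcium-binding protein of centrioles and of the base of the sperm flagellum. Of the 5 retrocopies it had the lowest level per length in KO, 0.528 CPM per kb in Spg and 1.31 CPM per kb in Spc, and the highest mean in WT Spc, 501 ± 217 CPM per kb (SD, n = 4), whose spread took in Rpl39l. Its counts were 306, 1786 and 87 in WT Spg and 63, 15 and 48 in KO Spg, so that every WT library lay above every KO library while the WT libraries ran from 1.58 to 35.5 CPM, led by replicate 2. In Spc the counts were 32465, 18916, 13910 and 25032 in WT against 71, 58, 90 and 150 in KO. The log2 fold change in Spc was -8.57 ± 0.57 (SE, edgeR adjusted p = 3.54e-06), or 380-fold lower in KO. In Spg it was -4.33 ± 1.15 (SE) and did not pass the threshold (edgeR adjusted p = 0.227), and without replicate 2 of WT Spg it was -2.24. The pachytene markers showed the same order of the WT Spg libraries, with summed levels of 449, 1273 and 302 CPM in replicates 1 to 3. Their part in the Cetn1 values was not tested.

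Rbmxl2 encodes a nuclear RNA-binding protein that regulates splicing in meiotic cells. Its counts were 2874, 3321 and 2648 in WT Spg and 2380, 2898 and 3517 in KO Spg, which overlapped. In Spc they were 4030, 5799, 5209 and 3118 in WT and 1536, 2990, 2633 and 1669 in KO, without overlap in counts or in CPM. Replicates 1 and 4 of KO Spc held 31.0 and 34.0 CPM of Rbmxl2 and replicates 2 and 3 held 53.6 and 50.2 CPM, the split seen for Rpl39l. The log2 fold change in Spc was -1.63 ± 0.24 (SE, edgeR adjusted p = 0.000261). Scaled by library totals instead of TMM factors it was -0.92 and no longer passed the threshold (edgeR adjusted p = 0.0189).

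Utp14b encodes a component of the small subunit processome, the particle that processes ribosomal RNA, and a mutation in it is known from the mouse strain with juvenile spermatogonial depletion. It was the 1 retrocopy of the 5 without a called difference in any comparison. Its counts were 2494, 2093 and 2706 in WT Spg and 2528, 3023 and 2192 in KO Spg. In Spc they were 1731, 845, 1627 and 1732 in WT and 1887, 1920, 2808 and 2014 in KO. The levels in CPM overlapped in both stages, from 25.5 to 60.2 in WT Spc and from 34.4 to 53.5 in KO Spc, where the log2 fold change was -0.08 ± 0.31 (SE, edgeR adjusted p = 0.816). With library totals it was 0.66 (edgeR adjusted p = 0.0641), so its sign depended on the scaling. Acsl3, which encodes a fatty acyl-CoA synthetase and overlaps Utp14b on the same strand, had a log2 fold change of -0.74 ± 0.24 (SE) in Spc, which did not pass the threshold (edgeR adjusted p = 0.017), and it was called by DESeq2.

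**Figure D1:**
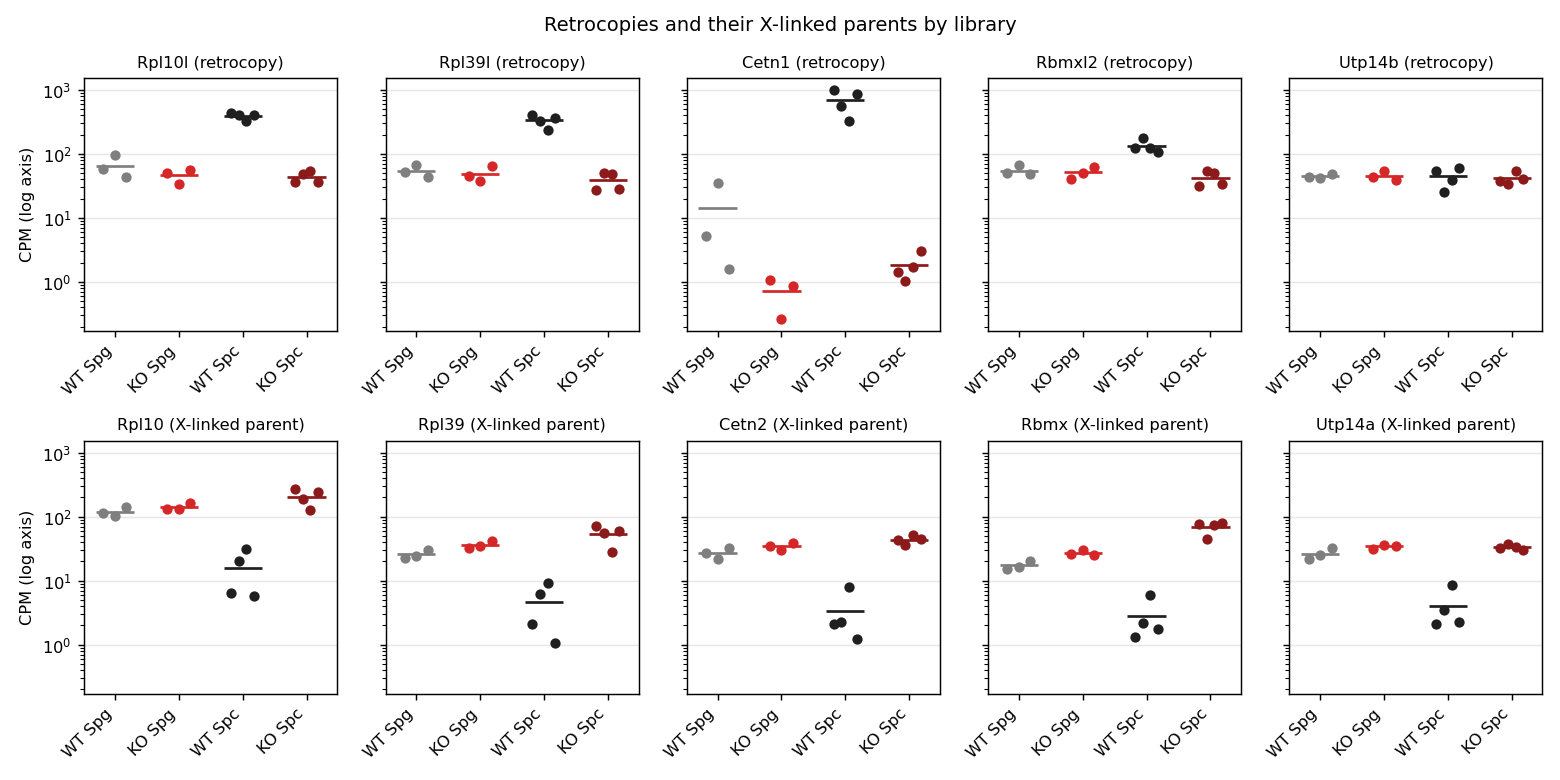
Level of each retrocopy (upper row) and of its X-linked parent (lower row) in every library, in CPM on a log axis, with 1 point per library and a line at the mean of each group. WT Spc stand above the other groups for Rpl10l, Rpl39l, Cetn1 and Rbmxl2 and below them for all 5 parents, while the Utp14b libraries of the 4 groups overlap.

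In KO against WT Spc, 4 of the 5 retrocopies were lower in KO and 0 were higher at an adjusted p under 0.01, the threshold used throughout. Of all 21919 genes tested in Spc, 30.7% were called lower and 28% higher (58.8% in all), and the groups did not overlap for 67.9% of genes against 4 of the 5 retrocopies. The median log2 fold change was -3.09 over the 5 retrocopies and 0.11 over all genes. With library totals, which put the median of all genes at 0.79, the log2 fold changes were -2.42 for Rpl10l, -2.32 for Rpl39l and -7.81 for Cetn1, all called, and 3.64 to 5.18 for the parents. In Spg, edgeR called 0 of the 5, where 0.0436% of 20659 genes were called (0.0387% higher and 0.00484% lower). At an unadjusted p under 0.05 it was 1 of the 5, Cetn1, against 7.3% of genes. DESeq2 called 0 of the 5, where it called 514 of all genes. Cetn1 was also the 1 of the 5 whose Spg groups did not overlap, against 12.2% of genes. With the replicate number as a block, the count of called genes in Spg rose from 9 to 108, and 0 of the 5 retrocopies were called.

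The WT libraries alone show the change from Spg to Spc, in which 4 of the 5 retrocopies rose. The log2 difference was 2.59 ± 0.29 (SE, edgeR adjusted p = 1.28e-05) for Rpl10l and 2.61 ± 0.31 (SE, edgeR adjusted p = 1.78e-05) for Rpl39l. For Cetn1 it was 5.62 ± 0.96 (SE, edgeR adjusted p = 0.000202), and it was 7.55 without replicate 2 of WT Spg. With library totals these differences were 1.75 for both Rpl10l and Rpl39l and 4.70 for Cetn1, all called. For Rbmxl2 it was 1.28 ± 0.26 (SE, edgeR adjusted p = 0.000623), and with library totals 0.47, which did not pass the threshold (edgeR adjusted p = 0.177). For Utp14b it was -0.00 ± 0.27 (SE, edgeR adjusted p = 0.992), and with library totals -0.85 (edgeR adjusted p = 0.0109), where the median of all genes was -0.76. Among all 24340 genes tested, 29.2% were called higher in WT Spc and 23.3% lower.

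In KO the same step gave no called rise of the 5. The log2 difference between KO Spc and KO Spg was -0.08 ± 0.27 (SE) for Rpl10l, -0.33 ± 0.28 for Rpl39l, 1.30 ± 0.83 for Cetn1, -0.28 ± 0.25 for Rbmxl2 and -0.11 ± 0.27 for Utp14b. EdgeR called 0 of the 5, where it called 3.05% of all genes (3.01% higher and 0.037% lower). At an unadjusted p under 0.05 it was 0 of the 5, against 24.5% of genes. DESeq2 also called 0 of the 5, where it called 2337 of all genes. EdgeR's count of all called genes in this comparison was unstable, since it fell from 742 to 112 without replicate 3 of KO Spg. For Cetn1 the levels were 1.08, 0.264 and 0.851 CPM in KO Spg and 1.44, 1.04, 1.72 and 3.06 CPM in KO Spc, which overlapped. The groups were without overlap for 26.4% of genes. Markers of other cells moved between these groups, with 5 of 5 macrophage markers (0.771 to 1.32 CPM summed in KO Spg) and 3 of 5 Leydig markers (4.77 to 9.10 CPM) called higher in KO Spc, and their part was not tested.

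The genotype effect differed between the stages for 4 of the 5 retrocopies, all in the direction of a larger loss in Spc, against 14.6% of genes called in that direction and 25.7% in all. The difference of the log2 fold changes (Spc minus Spg) was -2.68 ± 0.38 (SE, edgeR adjusted p = 0.000285) for Rpl10l and -2.94 ± 0.41 (SE, edgeR adjusted p = 0.000261) for Rpl39l, and both passed the threshold in all 14 fits that left out 1 library. With library totals they were -1.90 and -2.14, also called. Rbmxl2 had a difference of -1.57 ± 0.35 (SE, edgeR adjusted p = 0.00356). It lost the call without replicate 2 or replicate 3 of KO Spg or replicate 1 or replicate 3 of WT Spg, with an adjusted p of up to 0.0159, and with library totals (-0.82, edgeR adjusted p = 0.120). Cetn1 had a difference of -4.32 ± 1.15 (SE, edgeR adjusted p = 0.0088). It kept the call in 2 of the 14 fits, those without replicate 2 of WT Spg or without replicate 3 of WT Spc, and in the other 12 the values lay between -4.63 and -3.70 with adjusted p of up to 0.0293. The call was also lost with library totals (-3.50, edgeR adjusted p = 0.0201), with the replicate number as a block (-5.47, edgeR adjusted p = 0.0118), with replicates 1 and 4 of Spc, the most alike libraries, summed (-4.32, edgeR adjusted p = 0.0215) and with no filter beyond 1 count (-4.22, edgeR adjusted p = 0.0101). Without both of these libraries, an alternative chosen after seeing the data, the difference for Cetn1 was -6.59 (edgeR adjusted p = 6.34e-05).

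**Figure D2:**
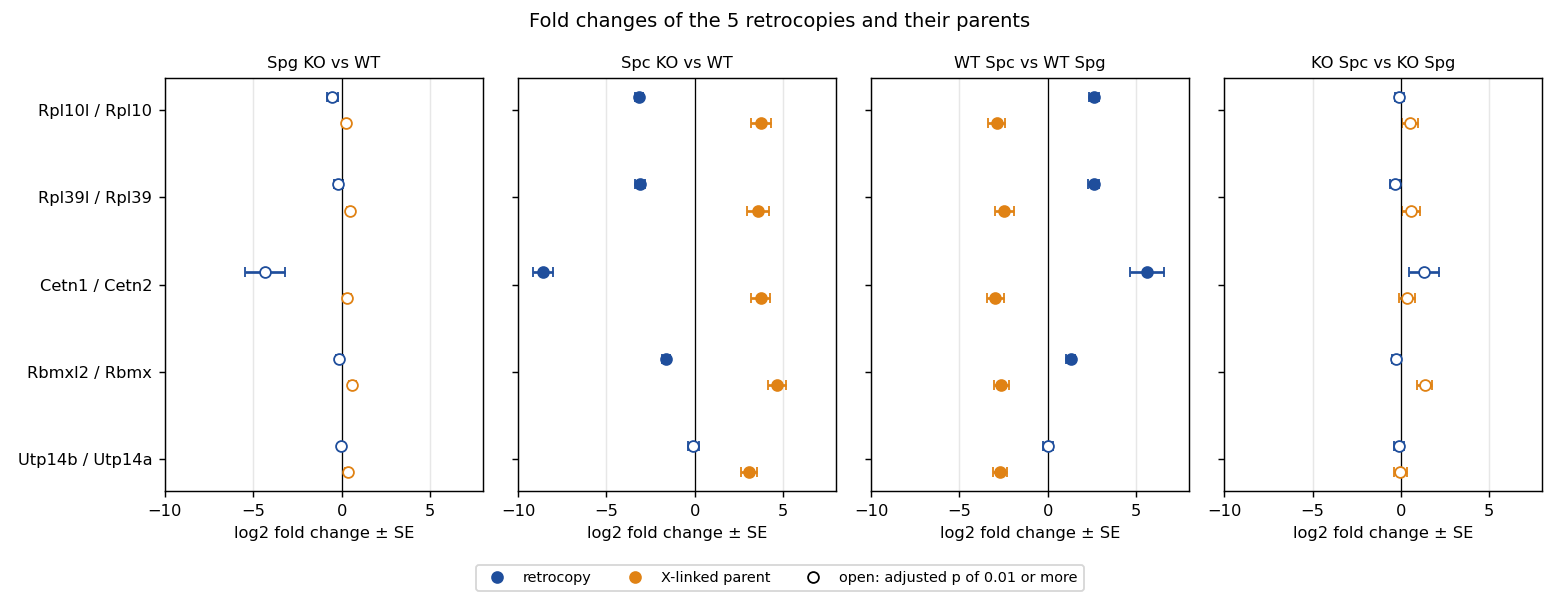
Log2 fold change with its SE (edgeR) of the 5 retrocopies (blue) and their X-linked parents (orange) in 4 comparisons, filled where the adjusted p was under 0.01. In Spc KO vs WT the 4 filled retrocopies lie left of 0 and all 5 parents right of it, in WT Spc vs WT Spg the sides are exchanged, and in Spg KO vs WT and KO Spc vs KO Spg all symbols are open.

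The X-linked parents went the other way, as did the spermatogonia, Leydig and macrophage markers above, and the part of these cells in the parents' values was not tested. Rpl10 had 6512, 5074 and 7874 counts in WT Spg and 7687, 7548 and 9374 in KO Spg. WT Spc held 211, 675, 1300 and 166 counts, while KO Spc held 13228, 10624, 6625 and 11724. The log2 fold change of KO over WT in Spc was 3.73 ± 0.55 (SE, edgeR adjusted p = 0.000244), with the reservation on pseudogenes given above. Rpl39 had 67, 208, 384 and 30 counts in WT Spc against 3518, 3139, 1485 and 2940 in KO Spc (log2 fold change 3.58 ± 0.63 SE). For both genes the KO libraries all exceeded the WT libraries.

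Cetn2, the ubiquitous centrin, had 67, 75, 335 and 35 counts in WT Spc against 2108, 2007, 2671 and 2224 in KO Spc (log2 fold change 3.72 ± 0.56 SE). Rbmx, which encodes a splicing regulator, had 42, 73, 247 and 51 against 3745, 2533, 3849 and 3870 (4.64 ± 0.50 SE). Utp14a had 68, 115, 351 and 66 against 1606, 2059, 1778 and 1505 (3.07 ± 0.45 SE). All 5 parents passed the threshold in KO against WT Spc, in WT Spc against WT Spg, where their log2 differences were -2.99 to -2.47, and in the test of whether the genotype effect differed by stage (2.66 to 3.96). Of the X-linked genes tested, 56.9% were called lower in WT Spc than in WT Spg (median log2 difference -2.37), and 38.4% were called with a higher genotype effect in Spc (median 2.72). In the test by stage Rpl39 lost the call in 8 of the 14 fits that left out 1 library (all libraries of Spg but replicate 2 of WT, and replicates 1 and 4 of KO Spc and replicate 1 of WT Spc), at an adjusted p of up to 0.0157, with the replicate block (edgeR adjusted p = 0.0159) and with Spc replicates 1 and 4 summed (2.63, edgeR adjusted p = 0.0127). For all 5 parents, replicate 3 of WT Spc had the highest level of its group.

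In Spg the parents had log2 fold changes of 0.24 to 0.61, where the median of X-linked genes was 0.17. EdgeR called 0 of 5 (2 of 5 at an unadjusted p under 0.05, Rpl39 and Rbmx), against 0.0436% of genes called and 7.3% at an unadjusted p under 0.05. DESeq2 called 0 of 5 and 514 of all genes. Every parent had a higher CPM in KO Spg than in the WT library of the same number, and with the replicate block edgeR still called 0 of 5. Between KO Spc and KO Spg edgeR called 0 of 5 (1 of 5 at an unadjusted p under 0.05, Rbmx), against 3.05% and 24.5% of genes. DESeq2 called 0 of 5 there and 2337 of all genes. For Rbmx that log2 difference was 1.33 ± 0.42 (SE, edgeR adjusted p = 0.0653), and without replicate 3 of WT Spc, whose spread enters the common fit, its adjusted p was 0.00519.

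The parents' values can be read against the whole chromosome. Genes annotated on the X took 0.134% to 0.625% of gene counts in WT Spc, 2.80% to 3.62% in KO Spc, 2.12% to 2.84% in WT Spg and 2.72% to 3.06% in KO Spg. The 0.625% is replicate 3 of WT Spc, and the other 3 libraries had at most 0.174%. The difference of 3.03 percentage points between KO and WT Spc had an exact two-sided permutation p of 0.029, the smallest that 4 against 4 libraries can give, and 0.114 after adjustment over 4 comparisons. Of the 912 X-linked genes tested in Spc, 68.1% were called higher in KO and 7.89% lower, with a median log2 fold change of 2.98, and for autosomal genes the median was 0.01. The 5 parents thus lay at 3.07 to 4.64, above the median of the X-linked genes.

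The ratio of retrocopy to parent within a library does not depend on how libraries are scaled. It was expressed as the retrocopy's share of the pair, in counts per kb of exon. Exon length is the union of all annotated exons, which can exceed the length of a single transcript. For Rpl10 the union is 2053 bases, where the transcript used above gave 756 windows, and for Rbmx it is 4330, with 2009 windows. The shares may therefore lean to the retrocopy, most where the parent has several transcripts. Group differences of the log2 ratio do not depend on these lengths. Rpl10l made up 95.5% to 99.3% of its pair in WT Spc and 21.8% to 46.3% in KO Spc. In Spg it made up 37.7% to 65.6% in WT and 33.8% to 43.2% in KO. Rpl39l made up 97.8% to 99.8% in WT Spc and 39.7% to 75.0% in KO Spc, where Spg stood at 71.4% to 82.8% in WT and 64.7% to 72.7% in KO. For both pairs the KO Spc libraries overlapped with those of Spg, and replicate 3 of KO Spc lay above every KO Spg library.

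Cetn1 made up 98.0% to 99.9% of its pair in WT Spc and 3.32% to 7.43% in KO Spc. In WT Spg its share was 18.7%, 65.9% and 5.58% in replicates 1 to 3, and in KO Spg 1.02% to 3.53%. Rbmxl2 made up 98.4% to 99.6% in WT Spc, 54.7% to 77.6% in KO Spc and 82.0% to 92.1% over the 6 Spg libraries. Utp14b, whose own level was not called different, made up 71.4% to 93.4% of its pair in WT Spc and 33.4% to 45.9% in KO Spc, while Utp14a itself was called higher. In Spg its share was 45.2% to 51.4% in WT and 37.5% to 44.1% in KO.

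**Figure D3:**
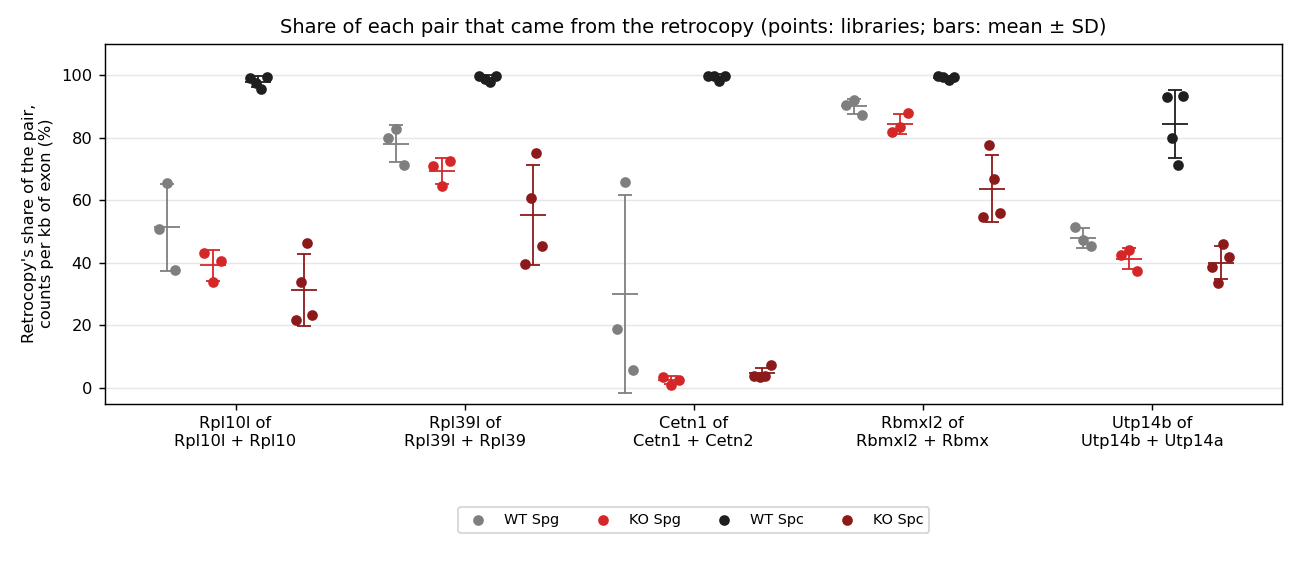
Share of each pair, in percent of its counts per kb of exon, that came from the retrocopy, with 1 point per library and the mean ± SD of each group. In WT Spc the share is above 95% in every library for 4 pairs and between 71.4% and 93.4% for Utp14b, and for all 5 pairs no KO Spc library reaches the WT Spc range.

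On the log2 scale the ratio of retrocopy to parent was lower in KO than in WT Spc by 7.18 for Rpl10l, 7.06 for Rpl39l, 12.6 for Cetn1, 3.31 for Utp14b and 6.50 for Rbmxl2. The 4 KO and the 4 WT libraries did not overlap in any of the 5 pairs, nor in any of 12 pairs of other retrocopies, and 67.9% of single genes were without overlap in this comparison. Each of these 5 differences had an exact two-sided permutation p of 0.029, the smallest that 4 against 4 allows, and 0.104 after Benjamini-Hochberg adjustment over 20 tests, so none could pass the threshold. In WT Spc the mean log2 ratio was 2.83 to 9.93 above that in WT Spg in the 5 pairs. Each difference had the smallest exact permutation p for 4 against 3 libraries (0.057, adjusted 0.104). The WT groups did not overlap in these 5 pairs, and 66% of single genes were without overlap in this comparison. In Spg the mean ratio was lower in KO for all 5 pairs, by 0.39 to 3.76 on the log2 scale. The Spg groups did not overlap for 2 pairs, Cetn1 and Utp14b, at the smallest exact permutation p of 0.1, against 12.2% of single genes. Of the 12 other pairs the ratio was lower in KO Spg for 12 and without overlap for 9, against the same 12.2% of single genes. The pachytene markers had a median log2 fold change of -0.83 in Spg (edgeR called 0 of 10), and their part was not tested. Between KO Spc and KO Spg the difference ran from -1.60 for Rbmxl2 (exact permutation p = 0.057, adjusted 0.104) to 1.07 for Cetn1. Rbmxl2 was the 1 pair of the 5 without overlap there, against 26.4% of single genes.

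The summed level of a pair did not stay level across the groups. The sums depend on the exon lengths used, as do the shares above. For Rpl10l and Rpl10 together it was 122 ± 18.1 CPM per kb in WT Spg, 116 ± 19.3 in KO Spg, 143 ± 21.9 in KO Spc and 395 ± 43.8 in WT Spc (mean ± SD). For Rpl39l and Rpl39 the sums were 84.2 ± 13.0, 84.4 ± 19.5, 84.4 ± 10.7 and 406 ± 87.8 in the same order. WT Spc thus held the highest sums, by an amount that depended on the scaling. Per library total in place of the TMM scale, the Rpl10 pair was at 267 ± 17.8 in WT Spc against 147 ± 26.0 in WT Spg and the Rpl39 pair at 271 ± 23.3 against 102 ± 18.9. For Rbmxl2 and Rbmx the sum was 91.1 ± 19.5 CPM per kb in WT Spc against 41.2 ± 6.55 in WT Spg, and per library total 62.5 ± 17.1 against 49.7 ± 9.30, which did not differ beyond the spread. Utp14b and Utp14a gave the reverse, with 12.2 ± 1.75, 14.2 ± 1.37 and 13.5 ± 1.13 CPM per kb in WT Spg, KO Spg and KO Spc and 6.78 ± 1.83 in WT Spc. Per library total this pair was at 4.61 ± 1.35 in WT Spc against 14.6 ± 1.62 in WT Spg. Cetn1 and Cetn2 summed to 504 ± 216 CPM per kb in WT Spc against 26.6 ± 10.7 in WT Spg, 21.5 ± 2.58 in KO Spg and 27.9 ± 4.11 in KO Spc, and per library total to 327 ± 104 in WT Spc against 32.3 ± 13.9 in WT Spg.

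A wider list of 12 other autosomal retrocopies of X-linked genes, some of them enzymes of energy metabolism, was counted in the same way. It was assembled with the results for these genes in view. In Spc 11 of 12 were lower in KO, 0 were higher and 1 was not called, with a median log2 fold change of -3.95, against 30.7% of all genes called lower. Pgk2, the phosphoglycerate kinase of sperm, had 13447, 3010, 8415 and 11439 counts in WT Spc and 34, 1, 27 and 37 in KO Spc (-9.13 ± 0.93 SE). Pdha2, a subunit of pyruvate dehydrogenase, had 17222, 18332, 15571 and 13885 against 1799, 1178, 2108 and 1797 (-3.83 ± 0.27 SE). Rpl36al, another ribosomal protein retrocopy, differed least among those called (-1.10 ± 0.27 SE, edgeR adjusted p = 0.00441). Rbmxl1, a second retrocopy of Rbmx, was the 1 not called (-0.07 ± 0.18 SE), and its level per length was 31.3 ± 3.77 in WT Spc and 29.3 ± 0.78 CPM per kb in KO Spc.

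All 11 X-linked parents of that list, beside Rbmx, were higher in KO Spc, with log2 fold changes of 2.10 to 4.31, against 28% of all genes and 68.1% of X-linked genes. In WT Spc against WT Spg 11 of the 12 retrocopies rose and all 11 parents fell, against 29.2% of all genes called higher, 23.3% called lower and 56.9% of X-linked genes called lower. Between KO Spc and KO Spg edgeR called 0 of the 12 retrocopies, with 7 of 12 at an unadjusted p under 0.05 against 24.5% of genes, and their median log2 difference was 0.84. DESeq2 called 3 of 12, all higher in KO Spc, where it called 2337 of all genes. The genotype effect differed between the stages for 5 of the 12 (Pdha2, Naa11, Cstf2t, Timm8a2 and Fam50b), all lower, against 14.6% of genes. In Spg, edgeR called 0 of the 11 retrocopies tested (6 of 11 at an unadjusted p under 0.05, against 7.3% of genes, with a median log2 fold change of -1.45). DESeq2 called 5 of 11, all lower in KO, and over all genes it called 514, of which 378 were lower. The pachytene markers had a median log2 fold change of -0.83 in Spg, with 5 of 10 at an unadjusted p under 0.05 and 3 called by DESeq2 (edgeR called 0), and their part was not tested. Ubl4b was the member of that list that did not pass the filter on low counts in Spg, with at most 4 counts in a library. Gk2, a glycerol kinase, had 495, 1690 and 87 counts in WT Spg and 16, 11 and 0 in KO Spg, and so repeated the order of the WT Spg libraries seen for Cetn1.

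**Figure D4:**
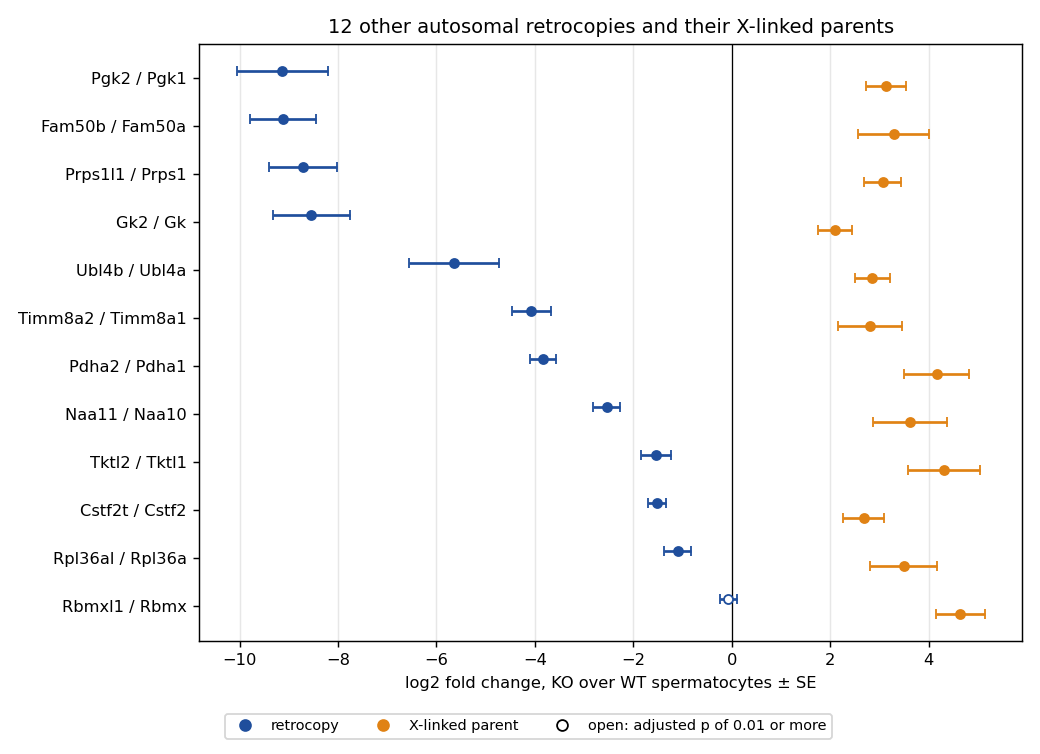
Log2 fold change of KO over WT Spc with its SE (edgeR) for 12 other autosomal retrocopies (blue) and their X-linked parents (orange), 1 pair per line, filled where the adjusted p was under 0.01. The retrocopies run from -9.13 for Pgk2 to -0.07 for Rbmxl1, whose symbol is open, and every parent lies right of 0.

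Genes that share a function with a member but are not retrocopies of X-linked genes were set beside it. The other centrins, Cetn3 and Cetn4, were both lower in KO Spc, with log2 fold changes of -1.77 ± 0.28 and -4.90 ± 0.39 (SE), and both rose from WT Spg to WT Spc. Of 14 further genes of the small subunit processome, 5 were higher in KO Spc (Utp6, Utp15, Utp20, Wdr3 and Wdr43, with log2 fold changes of 0.98 to 2.37), 1 was lower (Nop14, -0.99 ± 0.26 SE) and 8 were not called, with a median of 0.49. Over all genes 28% were called higher and 30.7% lower.

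By their profiles over the 14 libraries, Rpl10l, Rpl39l, Cetn1 and Rbmxl2 were alike, with pairwise Pearson correlations of log2 CPM from 0.87 to 0.99, and their correlations with the 5 parents ran from -0.96 to -0.82. Utp14b correlated with these 4 at -0.17 to -0.01. These values describe 14 libraries that share stage and genotype, and most of the spread they measure lies between WT Spc and the rest. Among 12590 other genes with a mean of at least 5 CPM, the genes most like Rpl10l were Rangrf, AC160336.1 and Rtn1 (r of 0.995 to 0.996), and those most like Rpl39l were Mea1, C1qtnf4 and Slc25a39 (r = 0.99). Cetn1 was nearest to Tcp11, Hdgfl1 and Spink2 (r = 0.996), Rbmxl2 to Hmx1, Poc1a and Coprs (r = 0.98), and Utp14b to Rbm15, Zfp942 and Cenpe (r of 0.87 to 0.92).

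The promoters of Rpl10l and Rpl39l are shown because these genes had nearly the same levels and fold changes. They are the 250 bases before the start of each gene from RefSeq (GRCm38.p6), 5′ to 3′ on the gene's strand, with matches of the MYB-family motif TAACNG on either strand in capitals.
Rpl10l, chr12:66284402-66284651, minus strand: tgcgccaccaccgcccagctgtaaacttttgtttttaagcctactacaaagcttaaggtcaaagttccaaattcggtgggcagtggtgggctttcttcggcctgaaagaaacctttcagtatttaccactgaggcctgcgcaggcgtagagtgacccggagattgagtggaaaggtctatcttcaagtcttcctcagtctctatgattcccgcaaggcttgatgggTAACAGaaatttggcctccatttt
Rpl39l, chr16:10169978-10170227, plus strand: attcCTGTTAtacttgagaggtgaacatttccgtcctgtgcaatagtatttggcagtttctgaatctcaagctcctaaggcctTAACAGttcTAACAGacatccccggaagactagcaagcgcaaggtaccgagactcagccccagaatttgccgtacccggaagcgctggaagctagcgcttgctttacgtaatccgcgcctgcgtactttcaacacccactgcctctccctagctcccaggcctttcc

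TAACNG matched 1 time in the Rpl10l window and 3 times in that of Rpl39l, 0 times in those of Utp14b and Rbmxl2, and in 19.8% of all 32851 promoter windows of the same length. Among the windows of the parents Rpl10, Rpl39, Cetn2, Utp14a and Rbmx it matched in that of Rbmx. The motifs TGACGTCA (CRE), NRF1 and GTTGCCA (RFX), searched on both strands, matched in none of the windows of Rpl10l, Rpl39l, Utp14b, Rbmxl2 and the 5 parents, where 1.55%, 0.782% and 3.66% of all windows held a match. CRE, NRF1 and RFX were each searched as 1 exact string, so sites that differ from that string were not counted. The lack of a match therefore does not show that a window lacks such sites, NRF1 sites among them. A match is a string of letters and not a bound site. Promoter windows were available for 4 of the 5 retrocopies, and Cetn1, which had none, was not searched for motifs or CpG dinucleotides. The windows of Rpl10l, Rpl39l, Rbmxl2 and Utp14b held 8, 12, 23 and 37 CpG dinucleotides. Over all windows the median was 6, with quartiles of 2 and 16, between which Rpl10l and Rpl39l lay.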

How the data were processed

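The authors aligned paired-end reads of a stranded library to GRCm38 with STAR 2.7.3a, retained reads with at most 100 alignments, and counted genes and transposable element subfamilies with TEtranscripts, using strand. The deposited unit is raw counts for each gene, with replicates kept apart. The same tables hold the authors' fold changes and p-values, and further deposited tables hold TPM of single transposon copies. Neither was used here. A further Spg library per genotype, excluded by the authors for RNA quality, was not analysed here. Spg columns numbered 4 belong to samples titled replicate 3.

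Counts were filtered (filterByExpr), scaled by TMM factors and tested two-sided with edgeR 4.0.16 (quasi-likelihood) in R 4.3.3, each stage on its own and stage comparisons in 1 fit of 14 libraries, with p adjusted by Benjamini-Hochberg over all genes and subfamilies and called under 0.01. CPM use TMM factors over 14 libraries (0.605 to 0.851 in WT Spc, 1.05 to 1.24 elsewhere). Ratios (0.5 added to each count) and X shares were compared by exact permutation tests. The edgeR tests were checked on simulated counts of independent libraries with 1 fixed spread, which does not show their error rates on these data. The tools were also DESeq2 1.42.0, Python 3.11.15 with NumPy 2.4.6, SciPy 1.17.1, pandas 2.3.3, Biopython 1.88 and matplotlib 3.10.9. Alternatives changed 1 choice each, except DESeq2, which changes the test and the size factors, and 1 that left out a pair of libraries together.

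Labels do not say that replicates are separate animals, so p-values measure the spread between these samples. The paper describes 3 biological replicates for its RNA sequencing of sorted Spg and Spc, whereas 4 Spc libraries per genotype were used here. Same-numbered KO and WT Spg libraries deviated together (correlations of 0.69, 0.17 and 0.31 over 15340 genes). KO replicate 2 correlated more with WT replicate 3 (0.26) than with WT replicate 2. Whether the numbers pair the Spg libraries is therefore not settled. The main Spg test and the exact tests use no pairing, and the replicate block is an alternative. Spc replicates 1 and 4 were the most alike of each genotype, with an SD of log2 differences of 0.318 in WT and 0.366 in KO. The other Spc pairs had 0.872 to 1.25. Replicates 1 and 4 still differed beyond sampling noise (chi-square per degree of freedom 16.7 in WT and 12.7 in KO) and were kept as separate samples. The SDs and tests of 4 Spc libraries treat them as independent, which the labels do not establish. The 5 retrocopies, the gene lists and the named genes (the 5, their parents, overlapping genes, list members, and the 3 genes most correlated with each) were chosen with earlier results of these data known.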

Additional observations from a re-analysis of the deposited data

Results flagged for a closer look

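The genotype effect differed between Spc and Spg by the edgeR interaction test for Rpl10l (-2.68 on the log2 scale), Rpl39l (-2.94), Cetn1 (-4.32) and Rbmxl2 (-1.57), and in the other direction for their parents Rpl10 (3.42), Rpl39 (3.04), Cetn2 (3.33) and Rbmx (3.96) and for Utp14a (2.66), the parent of Utp14b. Stage, age and sorting gate cannot be told apart in this difference. Within the Spc groups of 4 libraries, 3 of 32 sets of values had a library far from the other 3, where chance gives about 1 in 20. Replicate 3 of WT Spc had 8.02 CPM of Cetn2 against 1.22 to 2.26 CPM in the others, and an X-linked share of gene counts of 0.625% against 0.134% to 0.174%. Without it the log2 fold change of Cetn2 between KO and WT Spc was 4.58. Replicate 2 of KO Spc had 45.4 CPM of Rbmx against 73.4 to 78.8 CPM in the others.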

How the results depend on the processing

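Called genes in Spg (9) became 514 with DESeq2, 144 with no filter beyond 1 count, 108 with the replicate block, 56 at an adjusted p under 0.05, and 0 to 18 without 1 library. Those between KO Spc and KO Spg (742) became 2337 with DESeq2, 346 with Spc replicates 1 and 4 summed, 2043 at 0.05, and 112 to 1005 without 1 library. Those in the interaction (6251) became 9865, 3521, 11191 and 3793 to 8993 in the same order, and the retrocopies called there (4) became 2 with library totals and 2 to 4 without 1 library. Library totals moved the median log2 value of all genes from 0.11 to 0.79 in Spc, from 0.02 to -0.76 in WT Spc against WT Spg and from 0.20 to 0.90 in the interaction. The split of higher and lower calls then went from 6145 and 6740 to 8074 and 4880, from 7103 and 5674 to 4541 and 8724, and from 2690 and 3561 to 4252 and 1733. Relative to these medians Rbmxl2 was at -1.72, 1.23 and -1.72.

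The sign of values near 0 changed for uncalled genes. Utp14b was at 0.0047 (Spg), 0.66 (Spc) and 0.65 (interaction) with library totals, at 0.0818 in Spc with replicates 1 and 4 summed, and in WT Spc against WT Spg at 0.0242 with DESeq2, 0.0243 with its size factors, 0.0027 with TMM on genes alone and 0.0093 without replicate 2 of WT Spg and replicate 3 of WT Spc, an alternative chosen after seeing the data. Between KO Spc and KO Spg, Utp14a was at 0.0185 with the replicate block and 0.0048 with replicates 1 and 4 summed, where Rpl10l was at 0.0035. Without 1 library, Utp14b ran from -0.15 to 0.0827 (Spg), -0.31 to 0.0781 (Spc), -0.17 to 0.19 (WT Spc against WT Spg) and -0.30 to 0.0818 (interaction), Rpl39l from -0.44 to 0.0133 and Rbmxl2 from -0.28 to 0.0679 (Spg), and Rpl10l from -0.34 to 0.0237 and the log2 ratio of Utp14b to Utp14a from -0.21 to 0.0467 (KO Spc against KO Spg). With the replicate block, the interaction calls of Cetn1 (-5.47, edgeR adjusted p = 0.0118) and Rpl39 (3.41, 0.0159) were lost, and no other call of the 5 retrocopies and their parents changed. Same-numbered Spc libraries correlated at 0.09, 0.25, 0.00 and 0.14, which does not settle whether their numbers pair them. The causes of these changes were not tested. Exact tests of 3 or 4 libraries a group could not pass the threshold, which limits what the ratios can show.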
